A study of Mus musculus with 48 samples.

Results

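The 10 genes of arginine and polyamine metabolism, *Arg1*, *Arg2*, *Nos2*, *Odc1*, *Azin1*, *Amd1*, *Srm*, *Sms*, *Sat1* and *Oat*, were read from the colon of mice with and without an intestinal epithelial clock. Members were listed by gene symbol, with earlier results of these data known. They were matched to Ensembl identifiers in GENCODE vM21, and all 10 were found among the 55401 genes of the count table. Whole colon RNA of adult male C57BL/6J littermates was sequenced, 4 mice at each of 6 circadian times (CT1, CT5, CT9, CT13, CT17 and CT21) for each of the 2 genotypes, 48 mice in all. Control mice carried floxed *Bmal1* alleles without Cre (*Bmal1*fl/fl x Villin wt/wt), and *Bmal1*IEC-/- mice carried the same floxed alleles with Cre driven by the Villin promoter (*Bmal1*fl/fl x Villin CRE/wt), so that the deletion is confined to cells that use this promoter, the intestinal epithelium. All mice fed ad libitum and were killed on the second day of constant darkness, when no light cycle sets the time.

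Arginine stands at a fork. Arginases (*Arg1*, cytosolic, and *Arg2*, mitochondrial) split it into urea and ornithine, while the inducible nitric oxide synthase (*Nos2*) turns it into nitric oxide and citrulline. Ornithine then goes either to polyamines, through ornithine decarboxylase (*Odc1*) and the spermidine and spermine synthases, or to glutamate and proline through ornithine aminotransferase (*Oat*). In the gut, polyamines are known for their part in renewal of the epithelium.

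Total counts ran from 3144997 to 4785844 per mouse, with medians of 3775926 (control) and 3891600 (*Bmal1*IEC-/-). A pair of *Bmal1*IEC-/- mice at CT1, numbered SV384 and SV385, had summed colonocyte counts scaled to library size as CPM (6 markers, *Car1* to *Ceacam20*) of 14629 and 16271, above the 9451 to 14595 of the other 46 mice. In summed smooth muscle markers 1 of the pair, at 774 CPM, lay below all others, and the other, at 3183, lay within the 3115 to 5311 of the remaining *Bmal1*IEC-/- mice and below the 3555 to 5705 of controls. The study describes 46 samples in its principal component plot and 4 mice a group elsewhere. Which pair was left out is not stated there, and was inferred from the scaling of its normalised control values and from an earlier report on these data. The fits below use the 46 without this pair (24 control and 22 *Bmal1*IEC-/- mice, of which 2 at CT1), with values over all 48 where they differ. The deleted gene *Arntl* (*Bmal1*) averaged from 26.2 normalised counts at CT9 to 258 at CT1 in control colon, and from 113 at CT9 to 176 at CT1 in *Bmal1*IEC-/- colon. Averaged over the day *Arntl* did not pass the test (log2 fold change 0.32, SE 0.17, adjusted p = 0.251, edgeR quasi-likelihood test with Benjamini-Hochberg adjustment), while its direct target *Nr1d1* (Rev-erbα) was lower in *Bmal1*IEC-/- colon (−1.49, SE 0.12, adjusted p = 2.15e-13). Reads of *Arntl* were summed over the whole gene and come from every cell type of the colon, so they check the deletion only in part. The 6 epithelial markers, *Epcam* to *Cdx2*, summed to 4715 to 7556 CPM, whereas the sums of the liver list (0.554 to 17.5 CPM) and of the small intestine list (0.813 to 18.0) stayed low in the 46 mice.

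Promoter sequences of RefSeq (GRCm38.p6, 250 bases before to 50 after a gene's start) were at hand for 5 of the 10 members, *Amd1*, *Oat*, *Odc1*, *Sat1* and *Sms*, as 6 sequences. They were searched on both strands for the E-box CACGTG, the letters that the CLOCK and BMAL1 pair is known to bind, and for AGGTCA, the half-site known for Rev-erb and ROR receptors. Both were found in 1 *Sms* promoter, with no match in the other 5 sequences. The windows of 30 bases around these matches are shown since they are the only clock-related letters found beside a member, with the motif in capitals and the strand of the gene, which is the minus strand, read 5′ to 3′.
*Sms* E-box, first base 196 before the start, chrX:157492466-157492495: cccagcggggttCACGTGcatttaaagaaa
*Sms* AGGTCA on the opposite strand, first base 18 before the start, chrX:157492288-157492317: tttaaagctgggTGACCTcctaacggatgg
Of all 32851 promoters searched, 7.15% held CACGTG and 16.3% held AGGTCA, and a match describes the letters only.

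To set the members side by side, normalised counts (counts divided by each mouse's size factor) were divided by the exon length in kilobases. In control colon, *Oat* stood highest, at 542 ± 52.9 normalised counts per kb (SD, n = 24). *Sat1*, which acetylates spermidine and spermine for export or breakdown, followed at 305 ± 27.5, and *Odc1* at 217 ± 24.0. *Azin1*, an inactive relative of ornithine decarboxylase that frees it from its antizyme, stood at 187 ± 35.4 and *Amd1*, which decarboxylates S-adenosylmethionine to give the aminopropyl donor, at 113 ± 30.7. The arginase *Arg2* reached 47.9 ± 15.99 and spermidine synthase (*Srm*) 43.4 ± 13.7 normalised counts per kb. Spermine synthase (*Sms*) stood at 15.4 ± 2.17, *Arg1* at 5.62 ± 2.76 and *Nos2* at 1.27 ± 0.449. In this order 2 pairs of neighbours differed in controls by less than the larger of their 2 SDs, *Odc1* with *Azin1* (*Odc1* higher in 18 of 24 mice) and *Arg2* with *Srm* (*Arg2* higher in 14 of 24 mice). The order of the means was the same in *Bmal1*IEC-/- colon, but some distances were not. *Arg2*, at 93.0 ± 18.5 per kb (n = 22), was above *Srm* (50.7 ± 11.2) in 22 of 22 mice, and it was nearer to *Amd1* (112 ± 23.0) than the larger of their SDs. *Odc1* (228 ± 24.9) was above *Azin1* (165 ± 35.7) in 22 of 22 mice, and their difference of 63.5 per kb was larger than either SD.

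**Figure D1:**
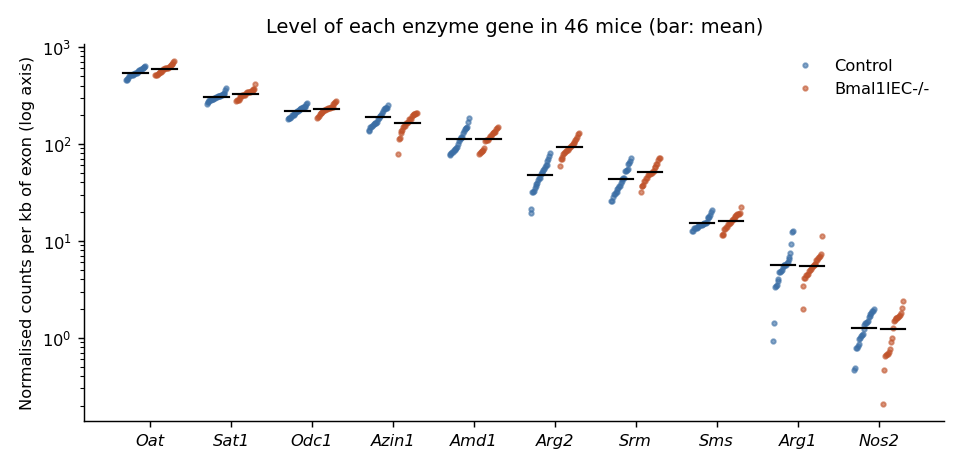
Normalised counts per kb of exon, on a log axis, for each of the 10 genes in 24 control (blue) and 22 Bmal1IEC-/- mice (orange), 1 point a mouse, sorted by value within a group, with a bar at the mean. *Oat* is highest and *Nos2* lowest in both genotypes, and *Arg2* is the gene whose 2 clouds lie farthest apart.

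The genotypes were compared over all circadian times in 1 model of genotype and time over the 15073 genes with enough counts. Of the 9 members tested, 1 passed both thresholds (adjusted p under 0.05 and a fold change over 1.5), against 1.39% of all genes tested and 0.677% in the direction of a higher level in *Bmal1*IEC-/- colon. That gene was *Arg2*, 2.03-fold higher in *Bmal1*IEC-/- colon (log2 fold change 1.02, SE 0.10, 95% interval 0.82 to 1.21, adjusted p = 2.33e-11, edgeR quasi-likelihood test with Benjamini-Hochberg adjustment). By p it ranked 30 of the 15073. By the adjusted p alone 3 of 9 members were called, against 10.5% of all genes. These were *Arg2* and *Oat* among the higher ones (4.83% of all genes) and *Azin1* among the lower ones (5.72%). The median log2 fold change of the 9 members was 0.09, with 7 above and 2 below 0, beside −0.00048 over all genes tested. In whole colon, more or fewer cells of a type and more or less RNA per cell cannot be told apart, here and in every result below.

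**Figure D2:**
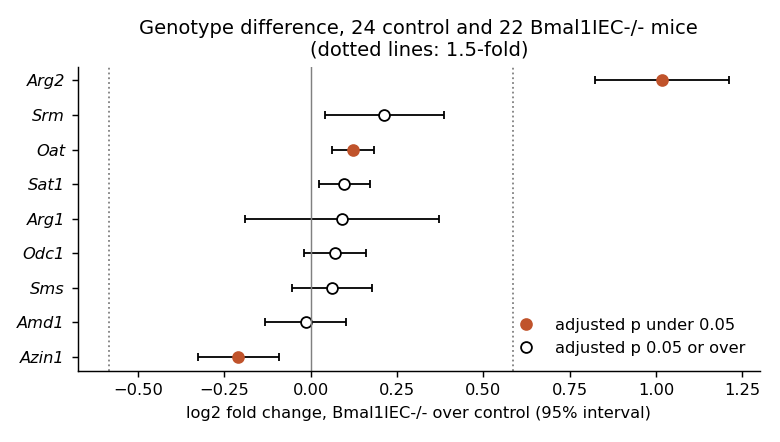
log2 fold change of Bmal1IEC-/- over control colon with its 95% interval for the 9 members tested, from 1 model of genotype and circadian time. *Arg2* alone lies beyond the dotted lines at 1.5-fold, with *Oat* above and *Azin1* below 0 at smaller sizes, and the other 6 intervals belong to genes whose adjusted p was 0.05 or over.

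*Arg2* (ENSMUSG00000021125, chr12:79130777-79156301, plus strand, mm10) was counted at 31 to 210 reads per mouse, a median of 102. In control colon its normalised counts were 71.6, 85.8, 107 and 115 at CT1, 53.1, 56.9, 63.8 and 70.4 at CT5, and 27.8, 30.1, 45.2 and 46.4 at CT9. They were 45.8, 50.6, 63.9 and 76.5 at CT13, 55.2, 73.2, 79.0 and 82.0 at CT17, and 60.6, 86.2, 94.1 and 100.4 at CT21. Control mice thus ran through a trough at CT9 and a crest around CT1, and the lowest mouse at CT1 lay above the highest at CT9. These 2 times were picked from the same values for their extreme means, so that separation is no test. In *Bmal1*IEC-/- colon the normalised counts were 151 and 181 at CT1, with 177 and 191 in the pair outside the fits. At CT5 they were 114, 131, 131 and 141, at CT9 84.0, 125, 145 and 156, and at CT13 121, 124, 168 and 183. At CT17 *Bmal1*IEC-/- mice had 99.7, 104, 117 and 137 and at CT21 99.6, 112, 138 and 159. All *Bmal1*IEC-/- mice lay above all controls at CT1, CT5, CT9, CT13 and CT17, and 3 of 4 did so at CT21, where the groups overlapped at 99.6 and 100.4. The share of all genes that separate in this way was not counted, here and for the members below. At CT1, with 2 *Bmal1*IEC-/- mice in the fits, *Amd1*, *Srm*, *Sat1* and *Oat* did not overlap either.

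Within single circadian times, all from 1 fit of the 12 groups, *Arg2* passed both thresholds at CT5, CT9 and CT13. The log2 fold change was 1.08 at CT5 (SE 0.19, adjusted p = 0.00103, edgeR quasi-likelihood test), where 0.325% of all genes passed. It was 1.77 at CT9 (SE 0.21, adjusted p = 6.45e-08, edgeR), a 3.403-fold difference at a time when 1.01% of all genes passed, and 1.32 at CT13 (SE 0.19, adjusted p = 5.92e-06, edgeR), when 2.28% did. At CT1 it was 0.79 (SE 0.22, adjusted p = 0.0502, edgeR), at CT17 0.66 (SE 0.19, adjusted p = 0.0847, edgeR) and at CT21 0.58 (SE 0.18, adjusted p = 0.218, edgeR), where 0.856%, 0.663% and 0.259% of all genes passed. With the pair at CT1 included, the CT1 difference was 0.88 and was called (adjusted p = 0.000616, edgeR), as it was with DESeq2 size factors (adjusted p = 0.0472, edgeR). Without the filter on low counts both thresholds were passed at CT1 (0.83, adjusted p = 0.000359, edgeR) and CT17 (adjusted p = 0.0012, edgeR) too. At CT21 the difference was then 0.57 (adjusted p = 0.0152, edgeR), short of 1.5-fold. Of the 6 differences the largest was at CT9, where control mice were at their trough.

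**Figure D3:**
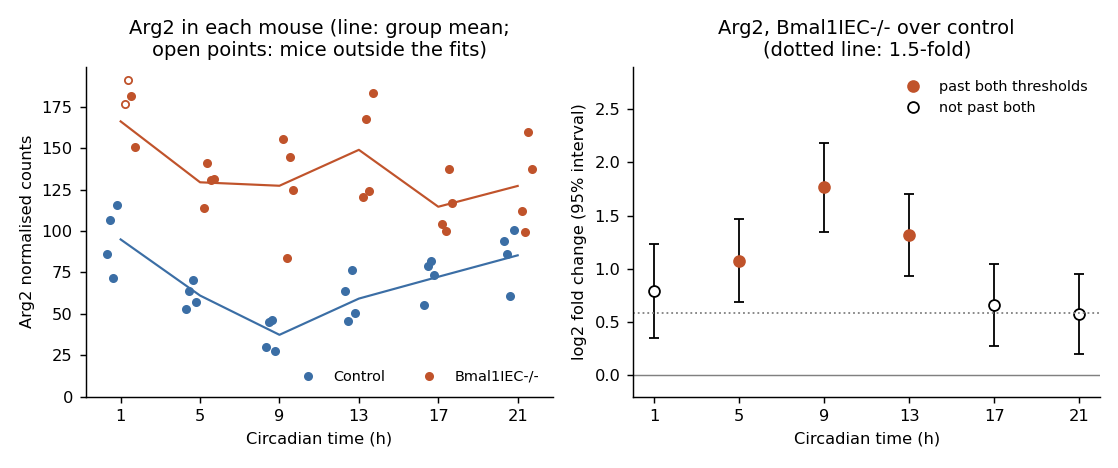
Left, *Arg2* normalised counts against circadian time in hours, 1 point a mouse for control (blue) and Bmal1IEC-/- (orange), lines through the group means and open points for the 2 mice outside the fits. Right, log2 fold change of Bmal1IEC-/- over control at each circadian time with its 95% interval, filled where both thresholds were passed: the control line dips to 37.4 at CT9, where the difference reaches 1.77.

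The daily course of each member was tested in each genotype with JTK_cycle, a rank test against 24-h cosine curves with an adjusted p under 0.05. Of the 10 members, 6 were called rhythmic in control colon (*Arg1*, *Arg2*, *Azin1*, *Amd1*, *Srm* and *Oat*), against 24.1% of the 32471 genes with at least 1 count and 48.8% of those past the filter on low counts. The calls in *Bmal1*IEC-/- colon were 4 (*Azin1*, *Amd1*, *Sms* and *Oat*), against 14.2% and 28.5%. The members' shares were not tested against those of genes with enough counts, a set that does not hold *Nos2*. A call in 1 genotype only is no test of a difference. In control colon *Arg2* was rhythmic (adjusted p = 2.45e-05, exact null distribution, peak at 22 h), with a cosine amplitude of 25.1 ± 4.31 normalised counts (SE, n = 24 mice), 36.3% of its mean of 69.0. In *Bmal1*IEC-/- colon no rhythm was called (adjusted p = 1, exact null distribution) and the amplitude was 5.36 ± 8.31 (SE, n = 22 mice), 3.99% of a mean of 134. The change of rhythm itself, tested as a genotype-dependent 24-h cosine and sine, was called for *Arg2* (adjusted p = 0.0337, edgeR quasi-likelihood test) and for no other member, where 0.935% of all genes were called. This call is close to its threshold: it was lost in 9 of the 46 fits that left out 1 mouse, most when control replicate SV420 at CT9 was left out (adjusted p = 0.0790, edgeR). The other 8 were without *Bmal1*IEC-/- replicates SV400 and SV410 at CT9, SV448 at CT13 or SV444 and SV445 at CT21, or without control replicates SV401 at CT9, SV455 at CT1 or SV476 at CT21, with adjusted p from 0.0511 to 0.0710 (edgeR).

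Exons of *Arg2* overlap those of *Vti1b*, a SNARE gene on the opposite strand, and of an antisense transcript, Gm48780, with 42 counts over all 48 mice. *Vti1b*, looked up after this overlap was seen in the annotation, did not pass the test between genotypes (log2 fold change 0.04, SE 0.04, adjusted p = 0.613, edgeR quasi-likelihood test) at 12853 counts over all 48 mice. The counting kept reads on exons of 1 gene only, and its strand setting is not given in the sources used here, so reads of the shared stretch were either left out or assigned by strand. The 3 genes whose mean level over the 12 genotype-by-time groups was most like that of *Arg2* were *Cldn8*, a tight junction claudin (Pearson r = 0.947), *Mtch2* (0.943) and *Unc5b*, a netrin receptor (0.942). They describe likeness over 12 group means from the same libraries. As *Arg2* itself differed by genotype, this choice favours genes that were higher in *Bmal1*IEC-/- colon, and their log2 fold changes were 2.12, 0.66 and 0.32.

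Arginase 1, known from liver and from activated macrophages, was near the limit of the depth. *Arg1* (ENSMUSG00000019987, chr10:24915221-24927484) had 2 to 27 counts per mouse and did not pass the test between genotypes (log2 fold change 0.09, 95% interval −0.19 to 0.37, adjusted p = 0.762, edgeR quasi-likelihood test) at this depth. It was rhythmic in control colon (adjusted p = 0.00119, JTK_cycle, exact null distribution, peak at 0 h). Its control mice had 13.3, 15.2, 27.6 and 27.8 normalised counts at CT1 and 2.07, 3.20, 8.62 and 10.95 at CT13. These were the times of the highest and lowest control means, and the groups did not overlap. As the 2 times were picked from these same values, that separation is no further test of the rhythm. In *Bmal1*IEC-/- colon the values ran from 4.36 to 25.2 with no rhythm called (adjusted p = 0.776, JTK_cycle, exact null distribution), and the change of rhythm was not called (adjusted p = 0.718, edgeR). *Nos2* (ENSMUSG00000020826, chr11:78920787-78960254), at 1 to 12 counts per mouse, was below the filter on low counts. Without that filter its log2 fold change was −0.06 (SE 0.21, adjusted p = 0.924, edgeR), and control mice ran from 2.05 to 8.75 and *Bmal1*IEC-/- mice from 0.921 to 10.5 normalised counts. No rhythm of *Nos2* was called in control (adjusted p = 0.61, exact) or in *Bmal1*IEC-/- colon (adjusted p = 0.112, exact, JTK_cycle).
As these transcripts can come from immune cells, the summed marker levels are given beside them. The macrophage list (6 of 6 markers detected) ran from 136 to 192 CPM in control and from 106 to 209 in *Bmal1*IEC-/- mice. The neutrophil list ran from 0.264 to 2.87 and from 0.513 to 3.02. The 6 macrophage markers and the 1 neutrophil marker tested were all below 0 in log2 fold change. Of these, 0 were called between genotypes with edgeR, with 1 (*Cd163*) at an unadjusted p under 0.05, and their part in *Arg1* and *Nos2* was not tested.

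Ornithine decarboxylase, the rate-limiting step of polyamine synthesis, passed no test with the 46 mice. *Odc1* (ENSMUSG00000011179, chr12:17544794-17551505) ran from 614 to 906 normalised counts in control and from 634 to 942 in *Bmal1*IEC-/- colon, with overlap at every circadian time. Its log2 fold change was 0.07 (95% interval −0.02 to 0.16, adjusted p = 0.347, edgeR), and no rhythm was called in control (adjusted p = 1, exact) or *Bmal1*IEC-/- mice (adjusted p = 0.0798, exact, JTK_cycle). The *Odc1* rhythm in *Bmal1*IEC-/- colon was called in 5 of 22 tests without 1 mouse. Its cosine amplitude was 3.51% of its mean in control and 8.75% in *Bmal1*IEC-/- colon.
Its regulator *Azin1* (ENSMUSG00000037458, chr15:38487427-38519266), which shields the enzyme from degradation, was lower in *Bmal1*IEC-/- colon over the day (log2 fold change −0.21, SE 0.06, a ratio of 0.865, adjusted p = 0.0123, edgeR quasi-likelihood test). With all 48 mice the call was lost (−0.15, adjusted p = 0.126, edgeR), and the pair at CT1 had 1142 and 1508 normalised counts beside 873 and 958 in the other mice of that group. The groups did not overlap at CT13, where control mice had 1421, 1454, 1455 and 1472 normalised counts and *Bmal1*IEC-/- mice 1031, 1037, 1131 and 1242. That single time was not called on its own (log2 fold change −0.39, SE 0.14, adjusted p = 0.105, edgeR), and without CT13 the difference over the day missed the threshold (−0.16, adjusted p = 0.147, edgeR). *Azin1* was rhythmic in both genotypes, with adjusted p = 0.0015 (control) and 0.00052 (*Bmal1*IEC-/-; JTK_cycle, exact null distribution), peaks at 16 and 18 h, and amplitudes of 20.96% and 21.3% of the mean.

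*Amd1*, *Srm* and *Sms* turn putrescine into spermidine and spermine. *Amd1* (ENSMUSG00000075232, chr10:40287458-40302186) had the lowest JTK_cycle p among the polyamine synthesis genes in control colon (adjusted p = 4.6e-05, exact, peak at 16 h). In control mice *Amd1* rose from 286, 293, 303 and 317 normalised counts at CT5 to 483, 511, 601 and 649 at CT13, a ratio of the means of 1.87. The *Bmal1*IEC-/- values were 279, 282, 306 and 321 at CT5 and 391, 458, 471 and 502 at CT13, a ratio of 1.53. CT5 and CT13 were the times of the lowest and highest means in both genotypes, picked from these same values, and these groups did not overlap. How many of all genes separate in this way was not counted. The rhythm was called in *Bmal1*IEC-/- colon too (adjusted p = 0.0113, exact, peak at 18 h), though not with a q over all genes (0.133). The amplitude of *Amd1* was 31.5% of the mean in control and 19.9% in *Bmal1*IEC-/- colon, a change that was not called (adjusted p = 0.575, edgeR). Averaged over the day *Amd1* did not pass the test (log2 fold change −0.01, 95% interval −0.13 to 0.10, adjusted p = 0.922, edgeR). At CT1 the *Bmal1*IEC-/- mice, at 392 and 407 (356 and 388 in the pair outside the fits), all lay above the controls at 278, 309, 322 and 331, a difference that was not called (0.36, SE 0.16, adjusted p = 0.246, edgeR). Its close copies *Amd2* and the pseudogenes *Amd-ps1*, *Amd-ps3* and *Amd-ps4* had 117, 6, 52 and 18 counts over all 48 mice.

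*Srm* (ENSMUSG00000006442, chr4:148591503-148594993) peaked in control colon at 14 h (adjusted p = 0.000441, JTK_cycle, exact null distribution). Control mice had 45.2, 48.1, 49.0 and 50.5 normalised counts at CT1 and 84.8, 102, 108 and 115 at CT13. These were the times of the lowest and highest control means, with no overlap. They were picked from these same values, so the lack of overlap is no further test. At CT1 the *Bmal1*IEC-/- mice had 71.3 and 98.5, and 96.9 and 103 in the pair outside the fits, all above the controls. The difference at CT1 was 0.80 on the log2 scale (SE 0.24, adjusted p = 0.0702, edgeR), not called with 2 *Bmal1*IEC-/- mice at that time. With all 48 mice it was 0.93 and was called (adjusted p = 0.00076, edgeR). At the other 5 times the *Srm* groups overlapped, and over the day its log2 fold change was 0.21 (95% interval 0.04 to 0.39, adjusted p = 0.106, edgeR). For *Srm* no rhythm in *Bmal1*IEC-/- colon was called (adjusted p = 0.479, JTK_cycle, exact null distribution), and its amplitude was 12.2% of the mean against 32.4% in control. The change of rhythm itself was not called (adjusted p = 0.532, edgeR).

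*Sms* (ENSMUSG00000071708, chrX:157443855-157492287), the gene whose promoter letters are printed above, ran from 75.9 to 126 normalised counts in control and from 69.4 to 133 in *Bmal1*IEC-/- colon, and overlapped at every circadian time. Its log2 fold change was 0.06 (95% interval −0.05 to 0.18, adjusted p = 0.563, edgeR). The *Sms* rhythm was called in *Bmal1*IEC-/- colon (adjusted p = 0.0261, exact, peak at 20 h), but not with a q over all genes (0.226) nor in 6 of 22 tests without 1 mouse. In control it was not called (adjusted p = 0.0583, exact, peak at 20 h, JTK_cycle). It was called there with size factors over all 48 mice (adjusted p = 0.0497, exact) and in 8 of 24 tests without 1 mouse. The change of rhythm was not called (adjusted p = 0.932, edgeR). A processed copy, *Sms-ps*, had 75 counts over all 48 mice.

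**Figure D4:**
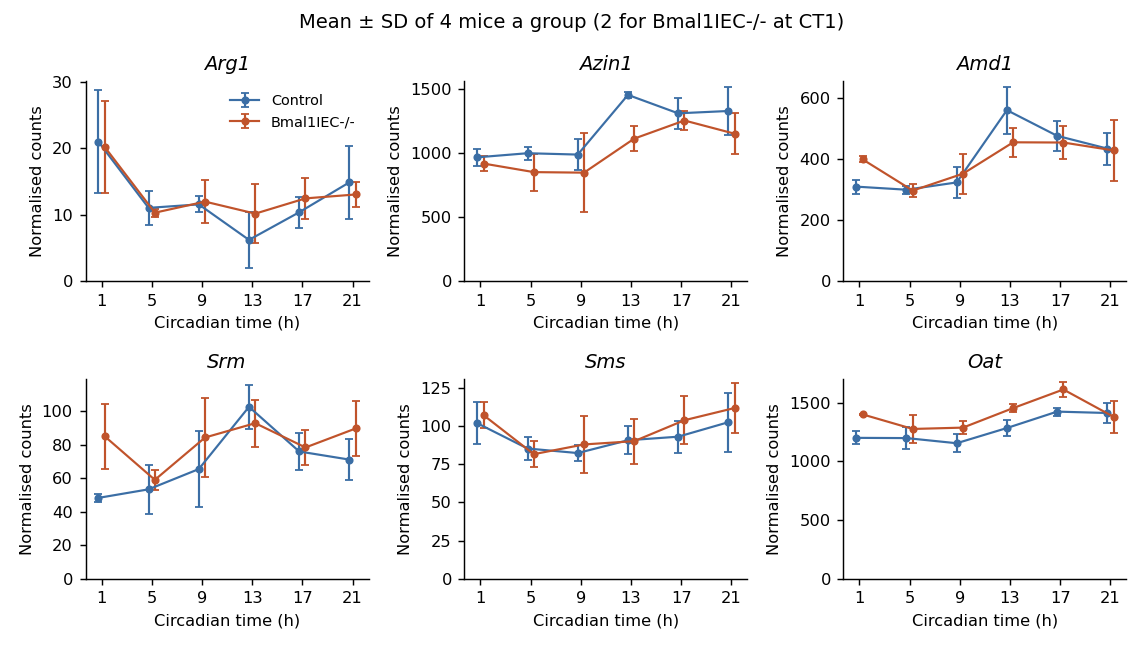
Mean ± SD of normalised counts against circadian time in hours for 6 members, control in blue and Bmal1IEC-/- in orange, 4 mice a group and 2 for Bmal1IEC-/- at CT1. *Azin1*, *Amd1* and *Oat* rise toward CT13 to CT17 in both genotypes, *Srm* rises from 48.2 at CT1 to 102 at CT13 in control, and *Arg1* stays at or below 27.8 in every control mouse.

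*Sat1* (ENSMUSG00000025283, chrX:155213132-155216449), the gate of polyamine breakdown, ran from 716 to 1050.1 normalised counts in control and from 772 to 1155 in *Bmal1*IEC-/- colon, overlapping at every circadian time but CT1. Its log2 fold change was 0.10 (SE 0.04, adjusted p = 0.0786, edgeR), and with all 48 mice 0.12, which was called (adjusted p = 0.0287, edgeR). No rhythm of *Sat1* was called in control (adjusted p = 0.677, exact) or *Bmal1*IEC-/- mice (adjusted p = 0.691, exact, JTK_cycle).
*Oat* (ENSMUSG00000030934, chr7:132557478-132576398) was 1.09-fold higher in *Bmal1*IEC-/- colon (log2 fold change 0.12, SE 0.03, adjusted p = 0.00336, edgeR quasi-likelihood test), well short of 1.5-fold. Without circadian time in the model the difference was 0.13 and missed the threshold (adjusted p = 0.0642, edgeR). At CT13 control mice had 1212, 1256, 1302 and 1367 normalised counts and *Bmal1*IEC-/- mice 1419, 1442, 1459 and 1496. At CT17 control mice had 1389.8, 1401, 1443 and 1461 and *Bmal1*IEC-/- mice 1555, 1567, 1642 and 1685. The groups did not overlap at these 2 times nor at CT1, and they overlapped at CT5, CT9 and CT21, where the mean ratios were 1.06, 1.12 and 0.977. On their own, CT1, CT13 and CT17 were not called (adjusted p = 0.179, 0.133 and 0.357, edgeR). The share of all genes without overlap at a single time was not counted. *Oat* was rhythmic in both genotypes, with adjusted p = 0.00026 (control) and 0.000283 (*Bmal1*IEC-/-; JTK_cycle, exact null distribution), and peaked at 18 h in both with amplitudes of 11.1% and 10.3% of the mean.

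Whether the genotype difference itself changed between the circadian day (CT1, CT5 and CT9) and night (CT13, CT17 and CT21) was tested as an interaction. It was called for 0 of the 9 members tested (adjusted p under 0.05, edgeR quasi-likelihood test), against 0.0531% of all genes. At an unadjusted p under 0.05 there were 1318 genes and 1 member, *Amd1*, whose night effect minus day effect was −0.26 on the log2 scale (SE 0.12, adjusted p = 0.539, edgeR). With DESeq2 0 members were called as well. For *Arg2* that difference was −0.23 (SE 0.23, adjusted p = 0.808, edgeR).

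The other genes of the pathway were counted from 7 lists of 52 genes, of which 48 were tested. None passed both thresholds with edgeR, and by the adjusted p alone 3 were higher and 2 lower in *Bmal1*IEC-/- colon, against 10.5% of all genes. With an unadjusted p under 0.05 there were 15 of the 48 (31.2%, against 23.5% of all genes tested), and with DESeq2 0 passed both thresholds. The median log2 fold change of the 48 was 0.03, with 29 above and 19 below 0. Among the 10 genes of arginine supply, *Ass1*, which makes argininosuccinate from citrulline, was lower (log2 fold change −0.16, SE 0.05, adjusted p = 0.0274, edgeR). Among the 6 tested of the other routes of arginine use, *Nos1*, the neuronal synthase, had the smallest adjusted p (−0.18, adjusted p = 0.124, edgeR). Of the 8 genes between ornithine, glutamate and proline, glutamine synthetase (*Glul*) was lower (−0.16, SE 0.04, adjusted p = 0.00306, edgeR).
Of the 4 genes of polyamine breakdown beside *Sat1*, *Aoc1*, the diamine oxidase that degrades putrescine and histamine, was higher by 0.48 on the log2 scale (SE 0.08, adjusted p = 2.47e-05, edgeR), a 1.396-fold difference. Of the 8 tested of the methionine cycle and salvage, *Ahcy*, which clears S-adenosylhomocysteine, was higher (0.17, SE 0.04, adjusted p = 0.00159, edgeR). Among the 8 antizyme and transport genes tested the smallest adjusted p was that of *Azin2* (−0.39, adjusted p = 0.0692, edgeR), and among the 4 genes of hypusination, the use of spermidine to modify eIF5A, that of *Dhps* (0.14, adjusted p = 0.108, edgeR).

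Markers of the cell types in the colon moved with genotype too, and 3 of them passed both thresholds, *Slc26a3* and *Clca1* lower and *Zg16* higher. All 6 smooth muscle markers were below 0 in log2 fold change, and 2 of them, *Myh11* and *Cnn1*, were called (adjusted p = 0.0387 and 0.0184, edgeR). Their summed level ran from 3555 to 5705 CPM in control and from 3115 to 5311 in the 22 *Bmal1*IEC-/- mice. Among the 6 epithelial markers *Cdh1* and *Cdx2* were higher and *Epcam* lower (log2 fold changes 0.12, 0.25 and −0.10), with sums of 4715 to 6960 and 5443 to 7556. Of the 6 colonocyte markers *Slc26a3* and *Car4* were lower (−0.77 and −0.55), and of the 6 goblet markers *Clca1* was lower and *Zg16* and *Fcgbp* were higher (−0.62, 0.70 and 0.19). The part of these shifts in the differences of *Oat* and *Azin1*, which are of like size to those of the smooth muscle markers, was not tested. All 5 fibroblast markers were below 0, with 1 called (*Dcn*, −0.23). The 3 T cell markers tested were all below 0, and of the 3 B and plasma cell markers 2 were above and 1 below 0. Of these T, B and plasma cell markers 0 were called with edgeR, with 2 and 1 at an unadjusted p under 0.05. The log2 fold change of *Arg2*, 1.02, was larger than that of any marker tested on these lists. The part of cell type shifts in it was not tested.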

How the data were processed

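The deposited table holds whole, unnormalised read counts for each gene and mouse, made by the authors. Per the labels and the study's methods, a TruSeq Stranded mRNA kit was used, reads were trimmed with Trimmomatic 0.39 and aligned to mm10 with STAR 2.7.5c, and featureCounts 1.4.6 counted reads on exons of 1 gene only. The annotation release and strand setting are not given in the sources used here. With 3144997 to 4785844 counts per mouse, a gene at 0 could have up to 3 counts, for counting error only. Genes kept by filterByExpr were fitted with edgeR 4.0.16 (TMM, quasi-likelihood F test, Benjamini-Hochberg adjustment over all genes tested, thresholds 0.05 and 1.5-fold) in R 4.3.3, as genotype plus circadian time, 12 group means, genotype by day and night, or genotype by a 24-h cosine and sine. DESeq2 1.42.0 was an alternative. JTK_cycle was an own implementation (phases in steps of 2 h). Scripts were tested on simulated data. Displayed counts were divided by size factors over all 48 mice. No label gives a batch, and replicates are separate mice. Named genes were the 10 members, *Arntl* and *Nr1d1*, the pathway genes past both thresholds or with the smallest adjusted p of their list, pathway genes with an adjusted p under 0.05 (1 is not reported here), and the 3 genes most like *Arg2*. The members and lists were chosen with earlier results of these data known. The pathway genes called by the adjusted p alone, *Vti1b* and the cell type markers with values were named after their values were seen.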

Additional observations from a re-analysis of the deposited data

Results flagged for a closer look

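The rhythm of *Arg2* differed between the genotypes by a test of the difference itself (a genotype-dependent 24-h cosine and sine, adjusted p = 0.0337, edgeR quasi-likelihood test with Benjamini-Hochberg adjustment), with an amplitude of 25.1 normalised counts in control and 5.36 in *Bmal1*IEC-/- colon.

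In 4 of the 120 groups of 4 mice (10 genes by 12 groups) 1 mouse lay far from the other 3, where chance alone would mark about 6. *Amd1* was at 513 normalised counts in control replicate SV441 at CT21 against 399.7 to 415 in the others. *Odc1* was at 629 in control replicate SV417 at CT17 against 772 to 791. *Srm* was at 114 in *Bmal1*IEC-/- replicate SV444 at CT21 against 79.7 to 83.6, and at 99.4 in control replicate SV420 at CT9 against 51.5 to 55.9.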

How the results depend on the processing

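*Arg2* kept its direction and both thresholds over the day in all 46 fits without 1 mouse (log2 fold change 0.99 to 1.05) and in the other 12 alternatives (0.89 to 1.12), and 0 genes of the pathway lists passed both in any of them. The 3 members called by the adjusted p alone became 1 when circadian time was left out of the model, and were 3 to 4 without single mice. *Azin1* (−0.21) lost its call with all 48 mice (−0.15), without circadian time in the model (−0.19), without CT5 (−0.20) or CT13 (−0.16) and in the test against 1.5-fold itself. *Oat* (0.12) lost it without circadian time in the model (0.13, adjusted p = 0.0642, edgeR) and in that last test. *Srm* gained a call without CT13 (0.31, adjusted p = 0.0389, edgeR), with all 48 mice (0.26, adjusted p = 0.0392, edgeR) and without control replicate SV420 at CT9. Calls that reversed in sign were far from the threshold: *Arg1* without circadian time in the model (−0.0192) and *Amd1* with all 48 mice (0.0013), without CT13 (0.0597), without CT17 (0.00714) and in 4 fits without 1 mouse (range over the 46 fits −0.0307 to 0.0116). The 3 calls at single circadian times became 4 with DESeq2 size factors, 5 with all 48 mice and 6 without the filter on low counts, and ran from 3 to 5 without single mice, 5 without control replicate SV420. Members with a changed rhythm were 0 to 1 without single mice, and 0 members had a genotype by period interaction in any alternative. Members rhythmic in control ranged from 6 to 7. In *Bmal1*IEC-/- colon they ranged from 3 to 5 without single mice and were 2 with a q over all genes. The *Sms* rhythm in *Bmal1*IEC-/- colon was lost without any 1 of 6 mice (SV410, SV418, SV445, SV448, SV449 or SV470), and *Sms* in control gained a call without any 1 of 8, as did *Odc1* (5) and *Nos2* (2) in *Bmal1*IEC-/- colon. *Sat1* gained a genotype call in 4 fits without 1 mouse. The cause of these shifts was not tested.

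No paired analysis was possible because every mouse has a number of its own. Depth limits *Nos2* and *Arg1*, at medians of 6 and 12.5 counts, and CT1 has 2 *Bmal1*IEC-/- mice in the fits.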
